A study of Mus musculus with 6 samples.

Results

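Expression of 10 genes of insulin-like growth factor (IGF) signalling was compared between mouse embryonic stem cells (mES) and epiblast stem cells (EpiSC). The genes were the ligand Igf1, the receptors Igf1r and Insr, the adaptor Irs1 and the binding protein genes Igfbp2, Igfbp3, Igfbp4, Igfbp5, Igfbp6 and Igfbp7. They were chosen by name, with earlier results of these data known, and were read by 17 of the 41174 probes on the array that are not controls. Of the 10 genes, 6 were higher in EpiSC and 0 were lower, where 11.8% of all genes tested were higher and 14.5% lower. Igfbp3 was 16.1-fold higher, Igfbp5 11.3-fold, Irs1 4.82-fold, Igfbp4 3.62-fold, Igf1r 2.27-fold and Igfbp2 2.07-fold.

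IGF ligands bind a cell-surface tyrosine kinase, the product of Igf1r, and more weakly the related insulin receptor, the product of Insr. The active receptor phosphorylates adaptors such as Irs1, which pass the signal to phosphatidylinositol 3-kinase (PI3K), Akt and mTOR. Secreted IGF binding proteins hold the ligands outside the cell and can limit or prolong their access to the receptor. IGF signalling is known for its part in the survival and growth of pluripotent cells, and cultures on fibroblast feeders also receive IGF ligands from the feeders.

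Replicates 1 and 2 of mES were the lines ESF122 and ESF175/1, and replicate 3 carried the line name ESF58/2 in one of its labels and ESF58/1 in the other. The EpiSC group held 3 samples of 2 lines, replicate 1 of EpiSC-5 and replicates 2 and 3 of EpiSC-7 at passages 20 and 25. Both cell types were kept on irradiated MEFs (mouse embryonic fibroblasts, a feeder layer). Their DMEM medium shared KSR, BME, NEAA and L-glutamine, with LIF added for mES and FGF2 for EpiSC. The growth factor and the array slide each differed with the cell type, and their effects cannot be told apart from it. All RNA came from whole cultures, and so fewer cells of a type and less RNA per cell cannot be told apart.

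Each value below is a relative signal, the processed signal of the probe divided by the 75th percentile of all probes on that array. Differences were tested with limma on the log2 scale, and adjusted p-values are over all 20688 genes tested, with errors as limma's standard errors and 3 arrays a group. A value of one probe cannot be set against that of another probe, and only the same probe is compared across arrays. Between 66.2% and 75.4% of probes were well above background on each array. The 6 naive ES markers were all lower in EpiSC, the 6 markers of the epiblast after implantation were all higher, and 0 of 3 core pluripotency genes passed the threshold.

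The windows of 250 bases before the RefSeq start sites (GRCm38.p6) are shown for Igfbp3, Igfbp4 and Igfbp5, the binding protein genes that rose most in EpiSC, and for Igfbp7, which did not pass the threshold. They lie at chr11:7213924-7214173 (minus strand), chr11:99040994-99041243 (plus strand), chr1:72874866-72875115 (minus strand) and chr5:77408046-77408295 (minus strand), all directly upstream of the first exon. Capitals mark matches, on either strand, to a TATA box (TATAAA), a GC box (GGGCGG) or a TEAD element (GGAATG).
Igfbp3: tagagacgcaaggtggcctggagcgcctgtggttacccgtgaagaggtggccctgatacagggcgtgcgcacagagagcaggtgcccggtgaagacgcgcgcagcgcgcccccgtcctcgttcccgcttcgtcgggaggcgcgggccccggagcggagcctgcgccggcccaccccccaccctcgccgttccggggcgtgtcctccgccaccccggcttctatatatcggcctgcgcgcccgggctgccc
Igfbp4: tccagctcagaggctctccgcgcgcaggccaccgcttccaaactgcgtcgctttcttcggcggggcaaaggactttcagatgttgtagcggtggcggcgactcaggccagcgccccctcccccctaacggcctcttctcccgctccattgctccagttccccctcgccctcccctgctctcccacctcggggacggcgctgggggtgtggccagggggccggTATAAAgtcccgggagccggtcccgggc
Igfbp5: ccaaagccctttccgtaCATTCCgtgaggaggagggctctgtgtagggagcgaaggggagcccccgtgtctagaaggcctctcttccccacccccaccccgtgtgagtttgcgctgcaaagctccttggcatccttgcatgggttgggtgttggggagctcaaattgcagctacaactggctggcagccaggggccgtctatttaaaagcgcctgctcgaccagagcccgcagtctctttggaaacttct
Igfbp7: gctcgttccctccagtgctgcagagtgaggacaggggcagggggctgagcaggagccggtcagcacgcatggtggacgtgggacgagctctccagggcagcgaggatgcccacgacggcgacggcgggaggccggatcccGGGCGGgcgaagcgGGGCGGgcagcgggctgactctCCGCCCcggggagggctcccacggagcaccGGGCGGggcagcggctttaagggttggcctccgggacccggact

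The windows differed in composition. That of Igfbp3 held 73.2% G and C and 32 CpG sites, that of Igfbp4 69.2% and 22, that of Igfbp5 58.8% and 10, and that of Igfbp7 74% and 26. The median of all 32851 windows in the table was 52.4% and 6 CpG sites. Igfbp7 held 4 GC boxes, Igfbp4 a TATA box at base -28 from the start site and Igfbp5 a TEAD element at -233, and Igfbp3 held no match to any of the 3 motifs. Among all windows, 32.7% held GGGCGG, 12.4% TATAAA and 12.6% GGAATG. Also searched on both strands were CCAAT (33.8% of all windows), CAGACA (17.1%), TAAACA (12%), TGANTCA (6.75%), ATGCAAAT (1.6%) and AGGTGTGA (1.12%), none of which was in these 4 windows. A match is only a run of letters, and none of these arrays measured binding. Igfbp2 lies next to Igfbp5 on chromosome 1, with 0 protein-coding genes between them.

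Igf1, the secreted ligand, was low and did not differ beyond the spread between arrays. Its relative signal was 0.134, 0.0458 and 0.146 in mES replicates 1 to 3 and 0.172, 0.143 and 0.0474 in EpiSC replicates 1 to 3. The groups overlapped, with 1 low array in each (mES replicate 2 and EpiSC replicate 3). The log2 difference, EpiSC minus mES, was 0.12 ± 0.64 (adjusted p = 0.898). A probe with 10 spots read 0.0578, 0.0194 and 0.0782 in mES and 0.133, 0.131 and 0.0375 in EpiSC. It was low on the same arrays, was not above background on mES replicate 2, and gave a difference of 0.97 ± 0.68 (adjusted p = 0.325 over probes). The third probe of Igf1 was above background on none of the 6 arrays.

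Igf1r, the receptor that binds both IGF ligands, rose in EpiSC. Its relative signal was 0.401, 0.334 and 0.364 in mES and 0.742, 0.818 and 0.935 in EpiSC. All EpiSC arrays lay above all mES arrays, and the spread within each group was small. The difference was 1.18 ± 0.17 (adjusted p = 0.00553). A probe to another transcript record of Igf1r read 0.174, 0.188 and 0.134 in mES and 0.305, 0.301 and 0.202 in EpiSC. It separated the groups as well, but its difference of 0.69 ± 0.24 did not pass over all probes (adjusted p = 0.0769).

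Insr, the insulin receptor, was dim and showed no difference past the threshold. It read 0.0412, 0.0994 and 0.0244 in mES and 0.0617, 0.0788 and 0.0673 in EpiSC. The third mES array was not well above background, and the 3 EpiSC values fell inside the mES range. The difference was 0.57 ± 0.49 (adjusted p = 0.415).

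Irs1, the adaptor that couples both receptors to PI3K, rose by 2.27 ± 0.41 on the log2 scale (adjusted p = 0.011). Its relative signal was 0.829, 0.295 and 0.375 in mES and 2.08, 1.78 and 2.79 in EpiSC. The lowest EpiSC array was above the highest mES array. A dimmer probe to another record of Irs1 read 0.0419, 0.0329 and 0.0178 in mES and 0.0441, 0.0371 and 0.0489 in EpiSC. It overlapped between the groups, with a difference of 0.57 ± 0.33 (adjusted p = 0.245 over probes), and it was not above background on the third mES array. The size of the Irs1 difference therefore held for 1 of its 2 probes.

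Of the 6 binding protein genes, 4 rose in EpiSC. Igfbp2 encodes a binding protein common in embryonic tissue, and it read 39.3, 37.9 and 31.7 in mES and 70.4, 66.2 and 90.3 in EpiSC. The groups did not overlap, and the difference was 1.05 ± 0.19 (adjusted p = 0.0118). Igfbp2 had 1 probe.

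Igfbp3, which encodes the main carrier of IGF in blood, showed the largest difference of the 10 genes. It read 0.977, 0.673 and 1.45 in mES and 19.2, 6.84 and 30.3 in EpiSC. Every EpiSC array was above every mES array, although the EpiSC arrays differed among themselves by 4.44-fold. The difference was 4.01 ± 0.58 (adjusted p = 0.00524). Its other probe read 0.0881, 0.0970 and 0.110 in mES and 0.613, 0.189 and 0.921 in EpiSC. It rose too, by 2.28 ± 0.56 (adjusted p = 0.0282 over probes), with the same low EpiSC array, replicate 2.

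Igfbp4, which encodes a binding protein that proteases of the pappalysin family cleave, rose on both of its probes. The brighter probe read 0.254, 0.153 and 0.197 in mES and 0.775, 0.950 and 0.493 in EpiSC. The other probe read 0.110, 0.0873 and 0.0955 in mES and 0.315, 0.409 and 0.234 in EpiSC. The groups did not overlap on either probe, with EpiSC replicate 3 the lowest EpiSC array on both, and the differences were 1.86 ± 0.31 (adjusted p = 0.00848) and, for the other probe, 1.68 ± 0.25 (adjusted p = 0.00537 over probes).

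Igfbp5, whose product binds the extracellular matrix as well as IGF, read 0.209, 0.104 and 0.296 in mES and 2.23, 2.29 and 1.79 in EpiSC. The 3 EpiSC values lay close together and far above the mES values, with a difference of 3.49 ± 0.39 (adjusted p = 0.00238). A second, dim probe to the same RefSeq record did not follow it, with 0.0977, 0.0818 and 0.0997 in mES and 0.0539, 0.127 and 0.0977 in EpiSC. Its groups overlapped and its difference was -0.09 ± 0.33 (adjusted p = 0.862 over probes).

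Igfbp6, which encodes a binding protein with a preference for IGF2, and Igfbp7, a more distant relative that binds IGF weakly, did not pass the threshold. Igfbp6 read 0.131, 0.169 and 0.189 in mES and 0.192, 0.123 and 0.0373 in EpiSC, a difference of -0.75 ± 0.59 (adjusted p = 0.368). Igfbp7 read 3.83, 0.754 and 9.76 in mES and 6.38, 3.49 and 0.444 in EpiSC, a difference of -0.50 ± 1.26 (adjusted p = 0.787). The spread of Igfbp7 inside each group, 12.95-fold in mES and 14.4-fold in EpiSC, exceeded the difference between the groups.

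**Figure D1:**
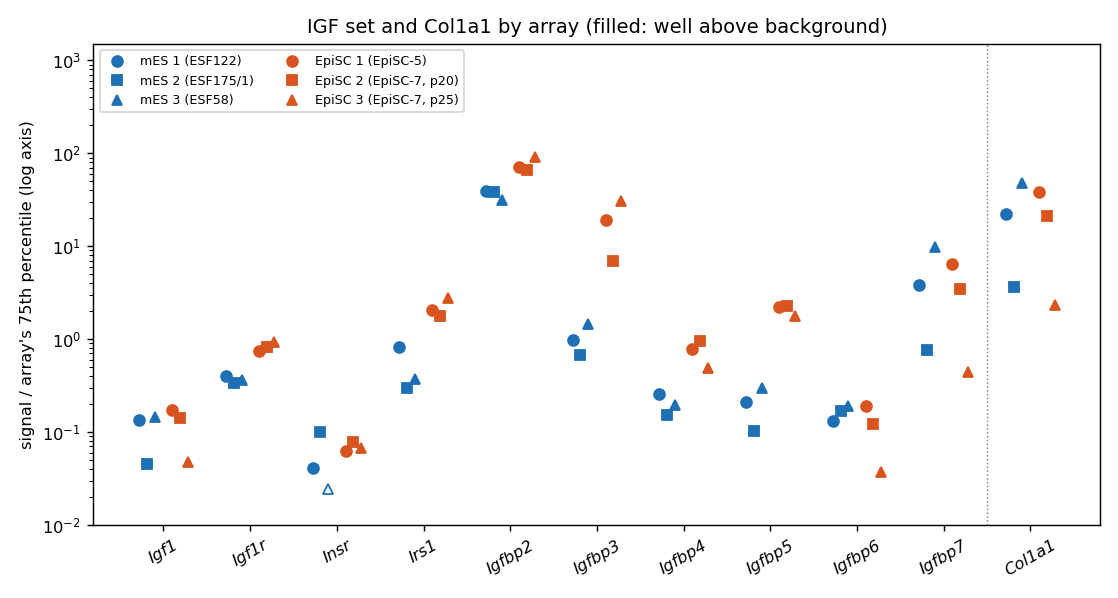
Relative signal of the 10 IGF genes and Col1a1 on each of the 6 arrays, on a log axis, with 1 symbol per array, mES in blue, EpiSC in orange and an open symbol where the probe was not above background. Igf1r, Irs1, Igfbp2, Igfbp3, Igfbp4 and Igfbp5 separate the groups, and Igfbp7 and Col1a1 spread over more than 10-fold inside each group.

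The groups did not overlap, with EpiSC above, for 6 of the 10 IGF genes and for 20.0% of all genes. The median log2 difference was 1.12 over the 10 genes and -0.11 over all genes. Taken singly, 8 of the 16 IGF probes that could be tested were higher, and 12.2% of all probes were. With the EpiSC-7 arrays averaged, so that this line counted once, the same 6 genes passed, and 9.30% of all genes were higher. The 10 genes were chosen with earlier results of these data known, and these counts are a description.

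**Figure D2:**
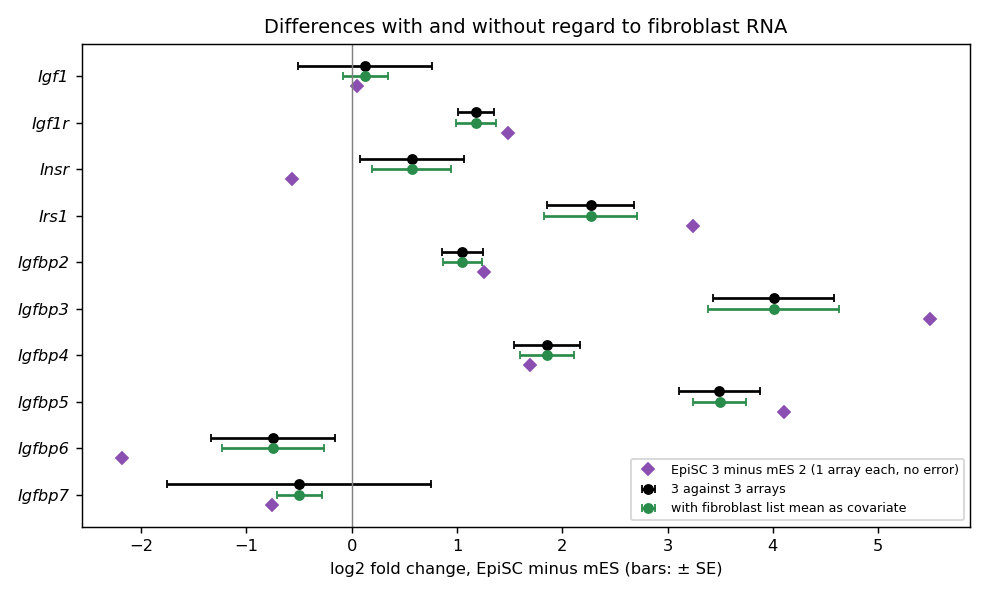
Log2 difference, EpiSC minus mES, of the 10 IGF genes, with bars of limma's standard error for the comparison of all 6 arrays (black) and with the fibroblast marker mean as a covariate (green), and the difference between EpiSC replicate 3 and mES replicate 2 as a diamond without error. The 6 genes past the threshold lie to the right of 0 in all 3, and the standard error of Igfbp7 is 1.26 without the covariate and 0.22 with it.

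Collagen I, encoded by Col1a1, is made by fibroblasts, and both cell types grew on fibroblast feeders. Col1a1 read 21.96, 3.68 and 48.4 in mES and 38.0, 21.3 and 2.34 in EpiSC. It was low on mES replicate 2 and EpiSC replicate 3, and the groups overlapped, with a difference of -0.35 ± 1.30 (adjusted p = 0.859). Of 19 tested fibroblast markers, 0 were past the threshold by limma in either direction. Their summed relative signal ran from 18.6 to 116 in mES and from 17.2 to 136 in EpiSC. The sum of 116, on mES replicate 3, lacks Col1a2, which had no value on that array, so the highest sums of the groups cannot be compared.

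Igfbp7 followed Col1a1 from array to array. Its log2 value minus that of Col1a1 varied by only 0.32 over the 6 arrays, against 4.46 for Igfbp7 alone, with means of -2.37 ± 0.13 (SD, n = 3) in mES and -2.53 ± 0.12 (SD, n = 3) in EpiSC. The SD of this difference over the 6 arrays was 0.138, rank 1 of 20639 genes compared with Col1a1. The genes next in rank were Ccl7 (0.143), Serpina3g (0.162) and Ogn (0.214), named after their values were seen. Igf1 came next among the IGF genes at rank 116 and Igfbp6 at rank 410, and the other 7 ranked 13598 or lower.

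The genes that rose in EpiSC ranked far below Igfbp7 by the SD over all arrays of their log2 difference from Col1a1. That SD includes the gene's own difference between the groups, so the rank alone does not show how a gene followed Col1a1 inside them. Inside the groups, the SD for the genes that rose was 1.14 to 2.01 in mES and 1.72 to 2.91 in EpiSC (n = 3 each). For Igfbp7 it was 0.13 in mES and 0.12 in EpiSC. Igfbp3 was highest on EpiSC replicate 3, the EpiSC array with the least Col1a1. Between the arrays lowest in fibroblast markers, EpiSC replicate 3 and mES replicate 2, Igfbp3 was 45.1-fold higher, Igfbp5 17.3-fold, Irs1 9.46-fold, Igfbp4 3.23-fold, Igf1r 2.80-fold and Igfbp2 2.38-fold. On the same pair Igf1 was 1.04-fold higher, Igfbp7 1.70-fold lower and Igfbp6 4.53-fold lower. Of the 19 fibroblast markers, 9 were higher on EpiSC replicate 3 of this pair and 10 lower, with a median log2 difference of -0.22. Those higher included Pdgfrb (7.25-fold), Col5a1 (4.47-fold), Twist2 (2.32-fold) and Mmp2 (2.32-fold), named after their values were seen. Those lower included Col3a1 (4.13-fold), Thy1 (2.69-fold), Lum (2.61-fold) and Col6a2 (1.89-fold), also named after their values were seen. These are single arrays and give no test, and the part of these markers' cells in the IGF differences of the pair was not tested.

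**Figure D3:**
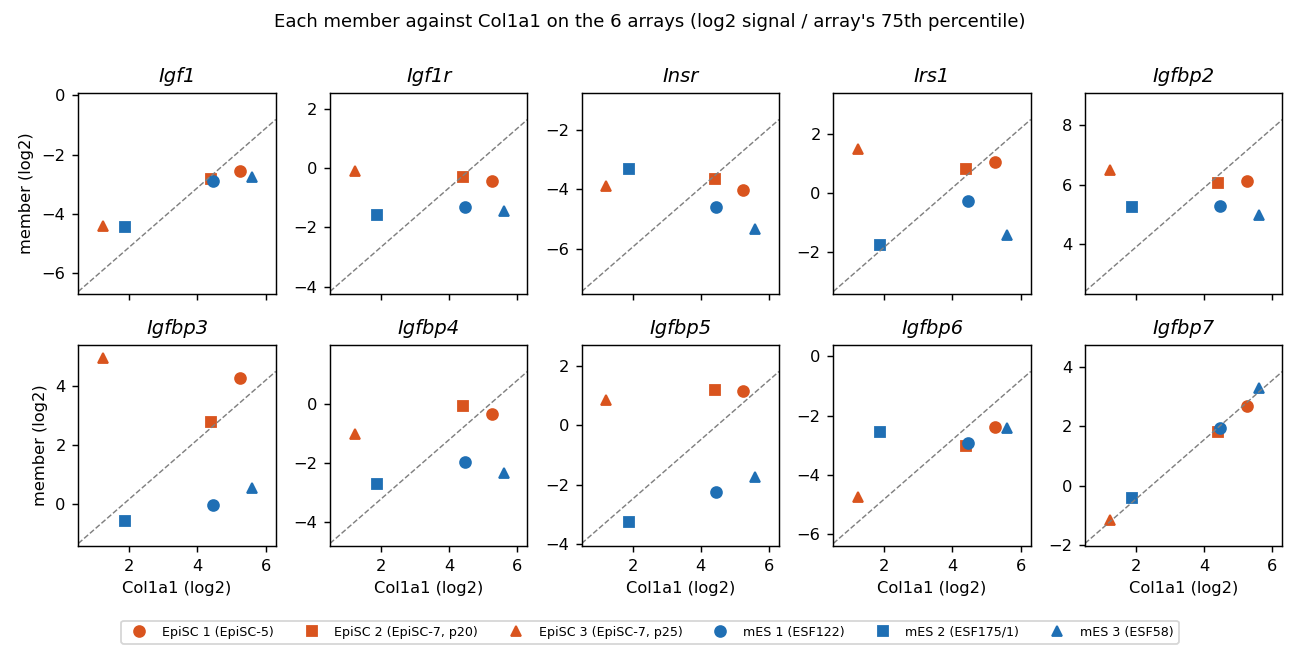
Log2 relative signal of each of the 10 IGF genes against that of Col1a1 on the same array, with 1 symbol per array (mES blue, EpiSC orange) and a dashed line of equal change. Igfbp7 lies along the dashed line in both groups, and for Igfbp3 and Igfbp5 the 3 EpiSC arrays lie above the 3 mES arrays whether Col1a1 was high or low.

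With the mean of the fibroblast markers on each array as a covariate, the same 6 genes passed (Igfbp7 differed by -0.50 ± 0.22, adjusted p = 0.148), where 10.5% of all genes were higher. Igfbp3 differed by 4.01 ± 0.62 (adjusted p = 0.0114) and Igfbp5 by 3.50 ± 0.25 (adjusted p = 0.0015). The slopes on the fibroblast mean were 1.42 for Igfbp7, 0.70 for Igf1, 0.43 for Igfbp6, 0.36 for Igfbp5, 0.24 for Igfbp4, 0.01 for Igfbp3 and -0.40 for Insr, against 1.47 for Col1a1. By limma the slope had an unadjusted p of 1.1e-05 for Igfbp7, 0.000473 for Igf1, 0.0198 for Igfbp5 and 0.087 for Igfbp4. Among the mES arrays Igfbp3 and Igfbp5 had the same order as Col1a1, as did Igf1 and Igfbp7. Among the EpiSC arrays neither Igfbp3 nor Igfbp5 had that order. On EpiSC replicate 3, the EpiSC array with the least Col1a1, Igfbp5 was at its lowest in EpiSC (1.79) and Igfbp3 at its highest (30.3). Igfbp5 was close on EpiSC replicates 1 and 2 (2.23 and 2.29). Without the array of each group lowest in fibroblast markers, 3 of the 10 genes passed, where 3.92% of all genes were higher. They were Igfbp3, Igfbp4 and Igfbp5. With 2 arrays a group left, Igf1r differed by 1.03 (adjusted p = 0.0715), Irs1 by 1.78 (adjusted p = 0.0822) and Igfbp2 by 0.95 (adjusted p = 0.0924).

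Some markers of primitive and visceral endoderm also differed between the groups. Of 10 tested, 4 were higher in EpiSC (Foxa2, Sox17, Gata6 and Sox7), 0 were lower and 6 did not pass. Over all genes 11.8% were higher and 14.5% lower. Of those that did not pass, Apoa1 (2.40), Pdgfra (0.98) and Dab2 (0.62) had log2 differences above 0. Hnf4a (-0.20), Gata4 (-0.24) and Amn (-0.66) had differences below 0. The summed relative signal of the 10 was 1.23 to 1.93 in mES and 21.5 to 52.5 in EpiSC, a sum in which bright probes weigh most. With each gene centred on its mean, the list's median log2 value was -0.33, -0.74 and -0.29 in mES replicates 1 to 3. In EpiSC replicates 1 to 3 it was 1.27, 0.20 and 0.04. Ttr was above background on none of the 6 arrays. The part of such cells in the IGF differences was not tested.

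The EpiSC-7 line was measured at passages 20 and 25 with 1 array each, and the differences have no replicate check. The passage 20 array lay at slide position 4 and the passage 25 array at position 1, so passage and position cannot be told apart. Igfbp3 was 4.44-fold higher at passage 25, Irs1 1.57-fold and Igfbp2 1.36-fold. Igfbp7 was 7.84-fold lower, Igfbp6 3.29-fold, Igf1 3.01-fold and Igfbp4 1.93-fold. Col1a1 was also lower at passage 25, with the relative signals given above.

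The pattern of Igfbp3 over the 6 arrays was most like that of Eomes, a transcription factor of the epiblast and primitive streak, with a root mean square difference of 0.257 in centred log2 values. Adamts9, a secreted protease, followed at 0.301 and Inpp4b, a phosphoinositide phosphatase, at 0.356. For Igfbp5 the nearest were the transcript AK080157 at 0.228, Rgma, a coreceptor of bone morphogenetic proteins, at 0.261 and Atrnl1 at 0.306. Inpp4b and AK080157 were above background on none of the mES arrays. Each likeness is over 6 arrays and mostly reflects the difference between the groups.

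Beyond the 10 genes, 52 of 55 listed genes of the IGF and insulin pathway were tested. Of these, 7 were higher in EpiSC, 9 were lower and 36 did not pass, with a median difference of -0.02. Over all genes, 11.8% were higher and 14.5% lower, which is 26.3% past the threshold in either direction. PI3K and Akt genes changed in both directions (4 higher and 3 lower of 14), and the TSC and mTOR genes that passed were lower (3 of 11). Those 3 included Tsc1, whose probes disagreed, as described below. None of 3 other ligand genes, 2 other receptor genes or 5 FOXO and GSK3 genes passed, and 2 of 3 genes for Igf2 mRNA binding proteins rose.

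Among ligands and receptors, Igf2, the fetal ligand, read 9.23, 1.97 and 11.3 in mES and 16.3, 11.4 and 6.53 in EpiSC. The groups overlapped, and the difference was 0.85 ± 0.71 (adjusted p = 0.398). Its slope on the fibroblast mean was 0.75. Igf2r, the receptor that clears IGF2, differed by -0.21 ± 0.21 (adjusted p = 0.478).

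The genes that rose began with Grb10, an imprinted adaptor that restrains the insulin and IGF receptors. It read 10.7, 9.98 and 9.96 in mES and 81.0, 44.6 and 45.8 in EpiSC, a difference of 2.43 ± 0.26 (adjusted p = 0.00225). The groups were far apart, and all 3 of its probes passed. Pik3r3, a regulatory subunit of PI3K, read 0.455, 0.388 and 0.491 in mES and 2.27, 1.35 and 2.18 in EpiSC, and rose by 2.09 ± 0.25 (adjusted p = 0.00306). The kinase Akt1 read 4.15, 3.37 and 3.93 in mES and 9.03, 8.54 and 8.98 in EpiSC, and rose by 1.22 ± 0.16 (adjusted p = 0.00398). Neither gene overlapped between the groups. The other probes of Pik3r3 (0.77 and 0.30) and of Akt1 (0.26) did not pass. Inppl1, a lipid phosphatase, read 8.49, 7.69 and 6.85 in mES and 15.3, 19.4 and 17.5 in EpiSC, and rose by 1.18 ± 0.18 (adjusted p = 0.00606).

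Igf2bp3 and Igf2bp2, which bind Igf2 mRNA, and Pik3ca, the catalytic subunit of PI3K, passed by less. They rose by 0.98 (adjusted p = 0.0374), 0.84 (adjusted p = 0.0192) and 0.76 (adjusted p = 0.0312). When each of the 6 arrays was left out in turn, Igf2bp3 and Pik3ca each passed 1 time and Igf2bp2 2 times, with adjusted p up to 0.116, 0.0917 and 0.0644.

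The largest falls were in Inpp5d and Gab1. Inpp5d, a phosphatase of the PI3K product that is best known from blood cells, read 4.69, 8.29 and 8.50 in mES and 0.0955, 0.178 and 0.141 in EpiSC. It was 51.6-fold lower in EpiSC (log2 difference -5.69 ± 0.33, adjusted p = 0.000267) and well above background on all arrays. Gab1, a docking protein of receptor tyrosine kinases, read 5.90, 6.31 and 6.02 in mES and 0.519, 0.351 and 0.537 in EpiSC. It was 13.2-fold lower (-3.72 ± 0.21, adjusted p = 0.000242).

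Other genes that fell act at several levels of the pathway. Pik3cd, a catalytic subunit of PI3K, fell by 2.44 (adjusted p = 0.00951), though its other probe (-0.47) did not pass. Its highest EpiSC array still lay below its lowest mES array. Eif4ebp1, a repressor of translation that mTOR inactivates, read 89.3, 77.2 and 52.8 in mES and 20.9, 31.1 and 19.1 in EpiSC, and fell by 1.62 (adjusted p = 0.00989). Phlda3, an inhibitor of Akt, read 31.2, 31.9 and 29.3 in mES and 10.5, 12.9 and 10.5 in EpiSC, and fell by 1.45 (adjusted p = 0.00257). Both were lower on every EpiSC array than on any mES array. Deptor, an inhibitor of mTOR, Igfals, which stabilises IGF complexes in blood, and Sos1, an activator of Ras, fell by 1.28, 1.01 and 0.91, and were named with Pik3ca after their values were seen.

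Tsc1, an inhibitor of mTOR signalling, differed by -1.50 (adjusted p = 0.0169), but its other probes differed by 0.03, -1.28 and -0.35. On the probe that gave -1.50, all EpiSC arrays (0.263, 0.455 and 0.241) lay below all mES arrays (0.912, 1.07 and 0.668). The gene's difference was 0.07 without mES replicate 1 and 0.10 without mES replicate 2. In each of these fits the probe with the highest mean was chosen anew, and these 2 values come from another probe. Foxo1, a transcription factor that Akt inhibits, differed by 0.07 ± 0.32 (adjusted p = 0.883). No probe was matched to Irs2, which is not analysed here.

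**Figure D4:**
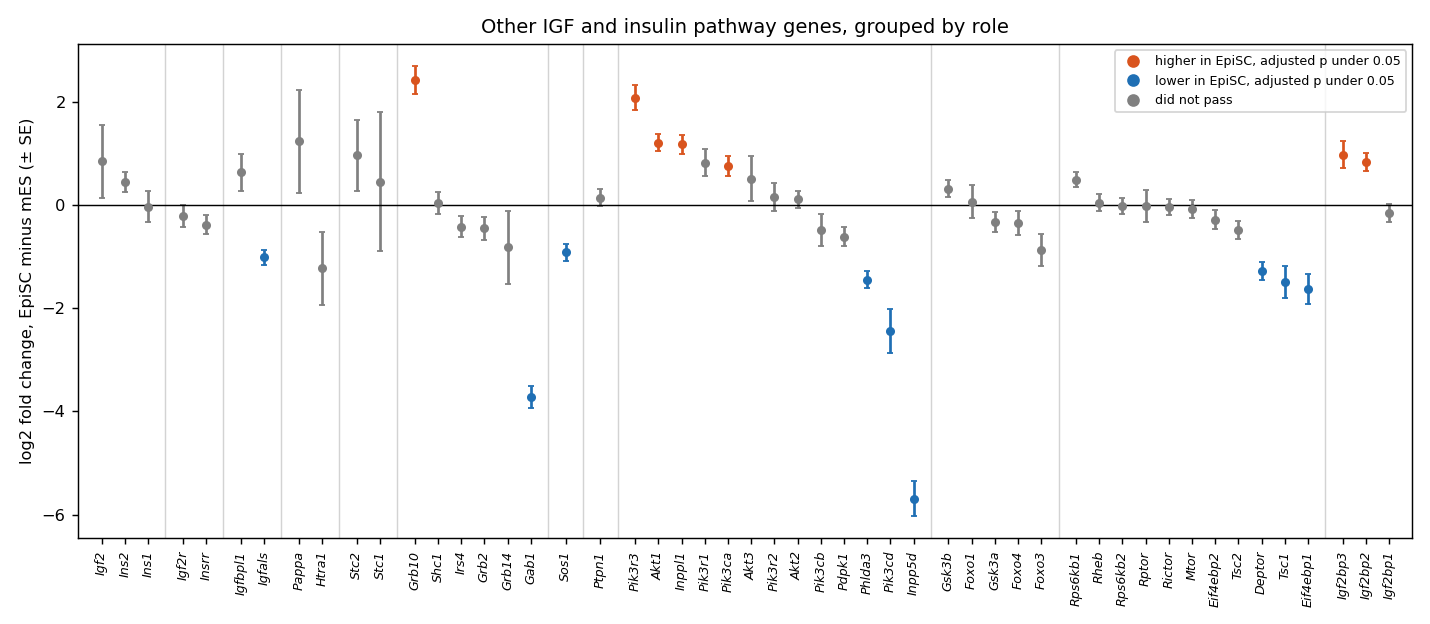
Log2 difference, EpiSC minus mES, of the tested IGF and insulin pathway genes by role, with bars of limma's standard error and genes past the threshold in orange (higher) or blue (lower), and 1 gene that did not pass left out of the plot. Changes in both directions occur among the PI3K and Akt genes, from -5.69 for Inpp5d to 2.09 for Pik3r3.

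Within slide positions the genes that rose kept their direction. Replicate 3 of each group lay at position 1 and the other arrays at position 4, and Igfbp3 differed by 4.39 in the first and 3.82 in the second, Igfbp5 by 2.60 and 3.94, Irs1 by 2.90 and 1.96, Igfbp4 by 1.32 and 2.12, Igf1r by 1.36 and 1.09 and Igfbp2 by 1.51 and 0.82. Position 1 held 1 array of each group and gives no test. Igfbp7 differed by -4.46 and 1.47, and Col1a1 by -4.37 and 1.66. The series calls the samples of each cell type biological replicates, but EpiSC replicates 2 and 3 share a line, and the p-values treat them as separate.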

How the data were processed

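Total RNA of 3 mES and 3 EpiSC cultures, Cy3-labelled, was read on 1-colour Agilent arrays. Spot intensity, linear and adjusted for background within each array, was taken from the deposited scanner output of Agilent Feature Extraction 9.1.3.1, per the file headers. For the probes, no genome build was stated. The value table deposited by the authors held the same signal, rounded (largest log2 difference 0.00716), on a linear scale and uncentred, with column medians of 78.9, 84.9, 68.7, 117, 80.25 and 82.95.

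Control and outlier spots (12 to 24 per array) were left out, and 0 spots were saturated. Spots of a probe were averaged as log2 values and each array's 75th percentile was subtracted. Probes were kept where all 3 arrays of mES, of EpiSC or of both were well above background and no group had more than 1 missing value. The entering probe with the highest mean stood for its gene. Of 41174 probes, 22951 were named through RefSeq accessions, and the others kept the file's name. limma 3.58.1 in R 4.3.3 (lmFit, eBayes, no covariate, two-sided) was fitted on 20688 genes with Benjamini-Hochberg adjustment and a threshold of 0.05, and was tested on simulated data. The number of arrays limits the precision, with a median standard error of 0.24.

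Named were the 10 members, Col1a1, 6 fixed pathway genes (1 of them is not reported here), the 6 largest pathway changes in each direction, the 3 nearest patterns of the 2 most changed members, and markers. The members and the gene lists were chosen with earlier results of these data known. Each of the 4 slides held 1 group. Of the promoter table, 9 of the 10 members matched by symbol. The alternatives tried are given in the closing section.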

Additional observations from a re-analysis of the deposited data

How the results depend on the processing

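Igfbp3, Igfbp4 and Igfbp5 stayed past the threshold in all 21 alternatives, with log2 differences of 3.14 to 4.61, 1.41 to 2.12 and 1.70 to 3.94. The fit of every probe by itself counted only the probe standing for each gene, and so does not check the choice of probe. The other Igfbp5 probe, outside this range, differed by -0.09 (limma adjusted p = 0.862 over probes). All 6 genes that rose passed without each single array (highest adjusted p 0.0454, Irs1). Irs1 and Igfbp2 did not pass on the arrays at position 4 alone (adjusted p = 0.0895 and 0.0604). Without the array of each group lowest in fibroblast markers, an alternative chosen after seeing the data, the members higher fell from 6 to 3, the pathway genes from 7 to 2 higher and 9 to 4 lower, and all genes from 2441 to 830 higher and 2995 to 718 lower. With the slide as a random block (fitted correlation -0.68) the pathway counts were 14 and 18, those of all genes 4987 and 6802, and 1 fibroblast marker was lower. Each slide held 1 group, and the added calls of this block support nothing. At position 4 alone 4 pathway genes were higher, and 1210 and 1476 of all genes were higher and lower. Without a filter 6118 genes were lower. Leaving out each array in turn gave 4 to 6 pathway genes higher, 1378 to 2171 genes higher, 1565 to 2784 lower and 0 to 1 fibroblast markers higher. With the fibroblast covariate 1 fibroblast marker was higher.

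Some differences that did not pass changed sign, while those of Igf2 and Igf2r kept it in every alternative. Igf1 was -0.10 with normexp, -0.40 with the slide block and -0.41 to 0.70 without single arrays. Insr was -0.016 with normexp, and Igfbp6 0.047 at position 4. Igfbp7 was -1.51 to 0.63 without single arrays and 1.47 at position 4. Col1a1 was -1.40 to 0.85 without single arrays, 0.056 with the EpiSC-7 arrays averaged and 1.66 at position 4. Foxo1 was -0.27 to 0.32 without single arrays and -0.28 at position 4. Tsc1, which had passed, was 0.025 with normexp and -1.78 to 0.10 without single arrays. The positive Tsc1 values without single arrays come from another of its probes, because the probe standing for a gene was chosen anew in each fit. The normexp fit also chose the probe anew, and which probe gave its Tsc1 value is not given here. The cause of the other changes of sign was not tested. No paired analysis was possible because the groups held different lines and the labels pair no mES sample with an EpiSC sample.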

Other observations

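The CCN family, whose members share a domain with the IGF binding proteins, held 5 tested genes, of which 2 were higher in EpiSC and 0 lower, with a median log2 difference of 1.47. Over all genes 11.8% were higher and 14.5% lower, with a median of -0.11. The list's median centred log2 value was -0.71, -1.90 and -0.09 in mES replicates 1 to 3, the same order as the fibroblast markers (0.37, -1.62 and 1.35), and 0.89, 0.32 and 1.27 in EpiSC, where the fibroblast markers were at 1.07, 0.33 and -1.84. The part of fibroblast RNA in the difference was not tested. Ccn1, a matrix-associated signalling protein, had relative signals of 2.14, 1.32 and 4.19 in mES and 25.2, 10.4 and 17.4 in EpiSC. All EpiSC arrays lay above all mES arrays, a 7.27-fold rise (log2 difference 2.86 ± 0.50, limma adjusted p = 0.00964). Ccn2, which is also made by fibroblasts, read 5.75, 5.23 and 10.7 in mES and 20.8, 14.2 and 23.3 in EpiSC, a rise of 1.47 ± 0.34 (limma adjusted p = 0.0237). The other 3 genes did not pass the threshold.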
